A study of Homo sapiens with 24 samples.

Results

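The 45 genes described here are genes of the G2 phase and of mitosis: cyclins A and B with their kinase CDK1, mitotic kinases, and proteins of the spindle, the kinetochore, the checkpoint and cell division. They were chosen by name as a list of mitotic genes, with earlier results of these data known, and were matched by gene symbol. All 45 were found among the 37967 genes of the deposited tables. All 45 had counts in every sample and entered every comparison. RNA was sequenced from HCT116 cells, a human colorectal carcinoma line, and from HCT116 oxpl-R cells, which were derived from them by repeated pulses of the platinum drug oxaliplatin. Each line was measured in 4 groups of 3 samples, 24 samples in all. The genotypes are HCT116 TetOn-E1A and HCT116 oxpl-R TetOn-E1A, so both lines, controls included, carry the adenovirus E1A gene under a doxycycline-inducible promoter. The control groups received neither agent. The E1A groups received 0.5 µg/mL doxycycline, the oxaliplatin groups received 25 µM oxaliplatin for 24 h, and the E1A + oxaliplatin groups received doxycycline 3 h before the same dose of oxaliplatin. There was no doxycycline group without the transgene, so effects of E1A and of doxycycline cannot be told apart, and the level of the E1A transcript was not analysed here. The resistant line is a single derived line whose chromosomes differ from those of its parent, so between the lines a difference in gene dose and a difference in regulation cannot be told apart.

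Mitotic genes are transcribed late in the cell cycle. Their promoters often hold a cell cycle homology region (CHR), which the MuvB complex binds, as the repressive DREAM complex in resting cells and with the activators MYBL2 and FOXM1 in cycling cells, and CCAAT boxes, which NF-Y binds. DNA damage is known to halt cells before mitosis through p53 and its target p21 (CDKN1A), and E1A is known to bind the retinoblastoma proteins and to free E2F factors, which drive genes of S phase.

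The promoters of the members are shown first because these letters are what many of the 45 genes have in common beyond their role. Windows of 300 bases, from 250 before to 50 after each start site, were taken from RefSeq on GRCh38.p14, and 40 of the 45 genes had at least 1 window. AURKA, BIRC5, FOXM1, TPX2 and TROAP had none in that table. The CHR letters, TTTGAA or TTCGAA on either strand, were present in a window of 30 of the 40 genes, against 19.5% of all 27305 genes with a window. CCAAT on either strand was present in 32 of the 40 genes, against 39.7% of all genes, and both sets of letters were present in 26 of the 40, against 7.85%. The members without the CHR letters in the window were AURKB, CCNA2, CCNB1, CENPE, CKAP2, KIF20A, KIF2C, NEK2, PTTG1 and TACC3. A match of letters is a description and not a binding site, and their absence says only that these letters are not in the window.

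The 3 stretches shown are given 5′ to 3′ on the plus strand with the CHR and CCAAT letters in capitals. CCNB2 and CDC25B are the first of the cyclins and their regulators, in alphabetical order, that hold both, and CDC20 was added after its values were seen because it had among the largest changes. CCNB2 (chr15:59104996-59105125) holds CCAAT 120, 87 and 54 bases before its start site, 33 bases apart, and the CHR letters 29 bases before it. CDC20 (chr1:43358831-43358980) holds CCAAT 100 and 55 bases and the CHR letters 65 bases before the start. CDC25B (chr20:3796160-3796290) holds ATTGG, which is CCAAT on the other strand, 73 bases and the CHR letters 38 bases before 1 of its start sites, inside the annotated gene but in none of its exons.
CCNB2: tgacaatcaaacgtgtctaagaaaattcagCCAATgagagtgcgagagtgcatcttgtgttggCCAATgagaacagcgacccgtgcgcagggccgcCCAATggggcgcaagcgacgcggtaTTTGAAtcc
CDC20: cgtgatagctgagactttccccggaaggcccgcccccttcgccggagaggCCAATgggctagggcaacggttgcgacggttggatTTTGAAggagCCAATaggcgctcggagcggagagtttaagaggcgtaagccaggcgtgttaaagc
CDC25B: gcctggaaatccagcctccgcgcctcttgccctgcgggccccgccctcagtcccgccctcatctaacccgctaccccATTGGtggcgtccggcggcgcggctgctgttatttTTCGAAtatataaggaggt

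The values are estimated counts per gene. Totals were between 24838095 and 37927720 per sample in the count table, which runs alphabetically to SETP6 and holds 39 of the members, and between 28004261 and 42613322 in a second table, from which SGO1, SPAG5, TACC3, TOP2A, TPX2 and TROAP were taken. A normalized count is the count divided by the sample's effective library size (TMM) and multiplied by the mean of these sizes. A log2 fold change (log2FC) is given with its standard error from edgeR's quasi-likelihood fit of all 24 samples, and a gene was called at an adjusted p under 0.05 over the whole table. The p-values measure the spread between samples labelled as biological replicates. Epithelial markers summed to between 4790 and 14102 CPM (counts scaled to the same library total). Fibroblast markers summed to 14.5 to 50.4, immune markers to 0.985 to 7.18 and endothelial markers to 0.043 to 3.09 CPM. DCN, LUM, PDGFRA, PTPRC, CD3E and MS4A1 each had a median below 1 estimated count. In RNA of whole cultures, fewer cells in G2 and mitosis and less of a transcript per cell cannot be told apart. By flow cytometry of DNA content, the paper reports that cells of both lines accumulated in G2/M under the dose of oxaliplatin used here. That exposure was longer than the one before RNA was taken. The share of cells in G2 and mitosis at the time of the RNA was not tested here.

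Some libraries stood apart. HCT116 oxaliplatin sample 3 differed from the other samples of its group by between -2.02 (MAD2L1) and 3.29 (CENPF) on the log2 scale over the 45 genes, and its differences followed transcript length (rank correlation 0.713 over the 45 genes and 0.609 over 10575 expressed genes). HCT116 E1A + oxaliplatin sample 1 differed by between -2.70 (MAD2L1) and 1.48 (CENPF). In HCT116 oxpl-R cells given oxaliplatin, sample 2 lay on average 0.86 lower and sample 3 0.91 higher than the rest of the group on the log2 scale, and sample 1 had 1.38% mitochondrial counts where the highest sample of the series had 19.7%. Sample 3 was the highest of its group in all 4 HCT116 oxpl-R groups for 18 of the 45 genes, AURKA, BUB1, CCNB1, DLGAP5 and TOP2A among them.

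**Figure D1:**
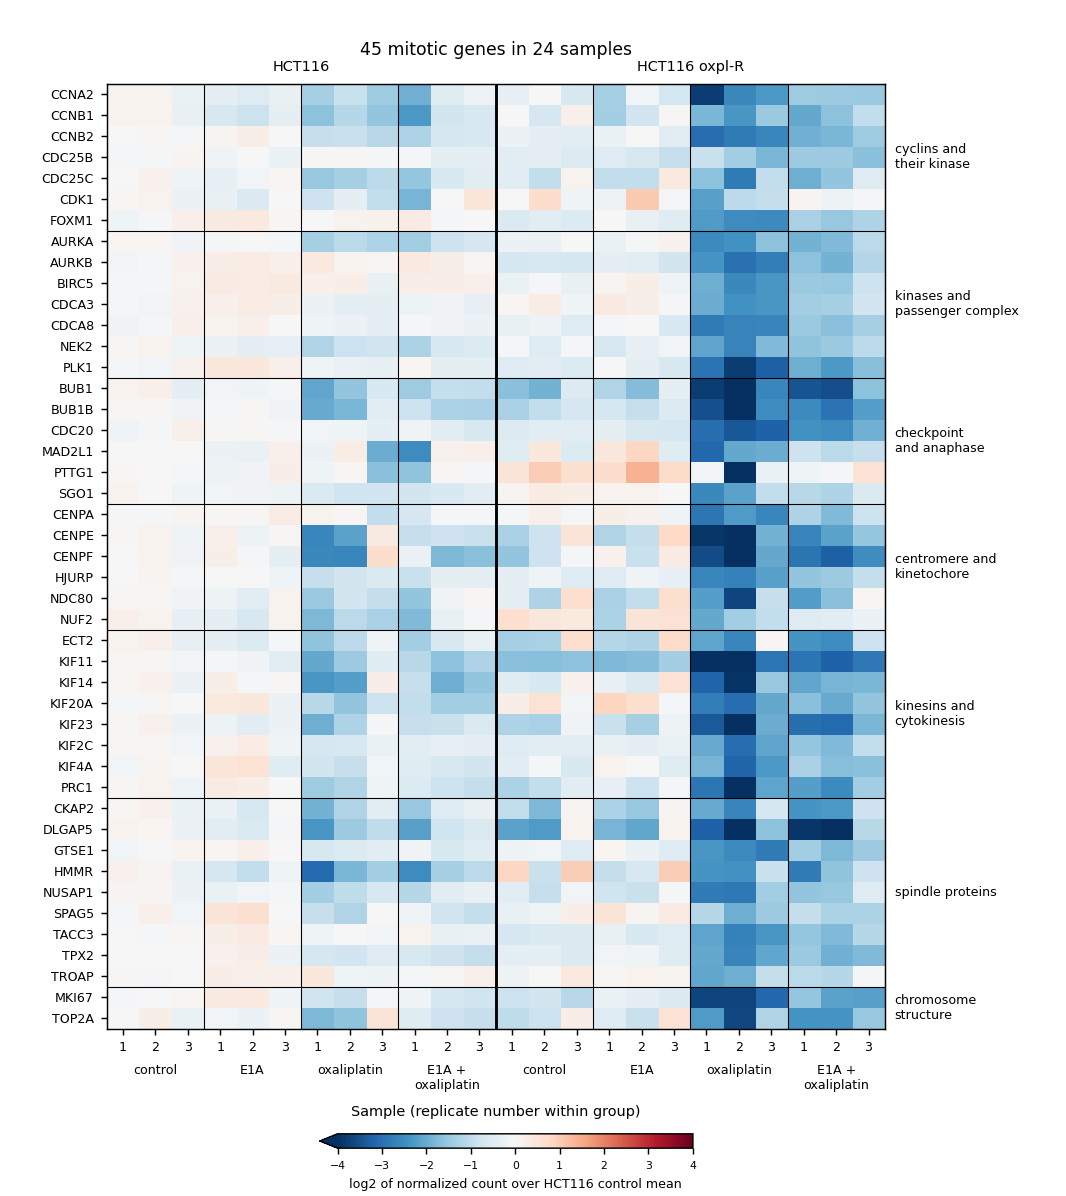
The 45 mitotic genes (rows, by role) in the 24 samples (columns, by line, treatment and replicate number), coloured by the log2 ratio of the normalized count to the mean of HCT116 control. The 3 samples of HCT116 oxpl-R given oxaliplatin form the darkest block, and the mean of that group was the lowest of the 8 groups for 41 of the 45 genes.

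In untreated HCT116 cells the genes differed widely in level. Per kilobase of transcript, CDC20, the activator of the anaphase-promoting complex, was highest at 8047.1 normalized counts per kilobase, followed by BIRC5 (survivin) at 4786.9 and PTTG1 (securin) at 4635.4, and the kinesins CENPE and KIF14 were lowest at 54.0 and 53.7. The 3 control samples of HCT116 lay close together, with a median ratio of highest to lowest sample of 1.23 over the genes. This ratio was 1.64 in HCT116 cells given oxaliplatin and 2.21 in HCT116 oxpl-R cells given oxaliplatin, where 25 genes varied more than 2-fold within the group.

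Oxaliplatin lowered a part of the mitotic genes in HCT116 cells. Of the 45 genes, 16 fell and none rose, and the median log2FC was -0.71. Over all genes, 8.61% fell in the count table and 7.15% in the second, with a median of 0.0, and among the 8863 genes with at least 100 counts on average, a level that all 39 members of the count table reach, 17.3% fell, with a median of -0.14. The samples of the 2 groups did not overlap, with oxaliplatin lower, for 25 of the 45 genes, against 17.8% of all genes. In all counts by role, the 7 kinases and passenger proteins include CDCA3, which is neither. By role, 4 of 7 cyclins and their regulators fell, 2 of 7 mitotic kinases and passenger proteins, 2 of 6 checkpoint and anaphase genes, 2 of 6 centromere and kinetochore genes, 2 of 8 kinesins and cytokinesis genes, 4 of 9 spindle genes and neither of the 2 genes of chromosome structure.

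CCNB1, the cyclin B1 that activates CDK1 at the entry into mitosis (chr5:69167135-69178245), had normalized counts of 8365, 8468 and 6211 in HCT116 controls and 2433, 3416 and 2526 with oxaliplatin, a log2FC of -1.46 ± 0.34 (adjusted p = 0.00298). All 3 treated samples lay below all 3 controls. Its relatives CCNA2 (cyclin A2) and CCNB2 fell as well, with log2FC of -1.20 ± 0.32 and -0.98 ± 0.18, and so did CDC25C, a phosphatase that activates CDK1, with -1.29 ± 0.40. CDK1 itself (chr10:60778331-60794852) had 4948, 5149 and 3997 in controls and 2604, 3621 and 2384 with oxaliplatin. Its groups did not overlap, but the log2FC of -0.71 ± 0.37 did not pass the test (adjusted p = 0.203). FOXM1, a transcription factor that activates many of these genes, had 5066, 5430.5 and 6558 in controls and 5633, 6243 and 6423 with oxaliplatin, 2 overlapping groups with a log2FC of 0.10 ± 0.17, and CDC25B, another phosphatase of CDK1, stood at 0.02 ± 0.18.

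Among the kinases, AURKA, the Aurora A kinase of the centrosome and spindle (chr20:56369389-56392337), had 3444, 3445 and 2967 in HCT116 controls and 1304, 1539 and 1389 with oxaliplatin. It fell 2.33-fold with no overlap of the samples (log2FC -1.22 ± 0.22, adjusted p = 0.000275). NEK2, a centrosome kinase, fell too (-0.95 ± 0.23). AURKB, the Aurora B kinase of the chromosomal passenger complex, had 3054, 3138 and 3691 in controls and 4313, 3626 and 3471 with oxaliplatin, with an uncalled log2FC of 0.21 ± 0.18. Its partners BIRC5 at 0.08 ± 0.19 and CDCA8 (borealin) at -0.27 ± 0.17 were not called either. PLK1, the polo-like kinase of mitotic entry and spindle assembly (chr16:23677656-23690367), had 6895, 6796 and 8189.5 in controls and 6442, 6028 and 5806 with oxaliplatin. Its 3 treated samples lay below the controls by a narrow margin (log2FC -0.26 ± 0.20, adjusted p = 0.429).

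The other genes that fell in HCT116 cells were the checkpoint genes BUB1 and BUB1B, the centromere and kinetochore genes HJURP and NUF2, the kinesins KIF11 and KIF20A, and the spindle genes GTSE1, HMMR, NUSAP1 and TPX2. The largest fall was that of HMMR, a spindle protein, whose normalized counts were 846, 809 and 636 in controls and 87.1, 215 and 294 with oxaliplatin (log2FC -1.94 ± 0.52, adjusted p = 0.00935). NUF2, of the NDC80 complex that binds microtubules, fell from 1035, 992 and 717 to 262, 431 and 367 (log2FC -1.37 ± 0.36). The treated samples of both genes lay below all controls. BUB1, a checkpoint kinase (chr2:110637528-110678063), had 3168, 3343 and 2275 in controls and 682, 974 and 1893 with oxaliplatin, with sample 3 far above the other treated samples, and a log2FC of -1.31 ± 0.46 just past the threshold (adjusted p = 0.0486). GTSE1, a microtubule-binding protein that restrains p53 in G2, fell from 2017, 2200.1 and 2372 to 1416, 1494 and 1596 (log2FC -0.55 ± 0.18). CDC20 (chr1:43358981-43363203) had 12059.8, 12448 and 15302 in controls and 12148, 11779.6 and 10396 with oxaliplatin, and these overlapping groups gave -0.21 ± 0.18. MKI67, the Ki-67 protein that coats mitotic chromosomes (chr10:128096659-128126423), had 11328, 11705 and 12485 and 6817, 6189 and 11363, and TOP2A, the topoisomerase that untangles chromosomes, had 2784, 3266 and 2282 and 796, 894 and 3889.9. For both, sample 3 was the highest of the treated samples, and neither log2FC (-0.54 ± 0.22 and -0.58 ± 0.48) was called.

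The number of mitotic genes called in HCT116 cells rested on single libraries. It was 26 without oxaliplatin sample 3, 9 without sample 2 and 5 without sample 1, against 16 with all. Without sample 1, HMMR, NUF2 and CCNA2 were no longer called, and BUB1 and GTSE1 lost their calls when either sample 1 or sample 2 or any of the controls was left out. CCNB1 and AURKA kept their calls in every alternative tried.

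The same dose in HCT116 oxpl-R cells lowered nearly all of the list. Of the 45 genes, 39 fell and none rose, and the median log2FC was -1.99. Over all genes, 3.01% fell in either table, with a median of 0.0, and among genes with at least 100 counts on average 5.69% fell. The samples did not overlap, with oxaliplatin lower, for 40 of the 45 genes, against 9.01% of all genes. All 7 mitotic kinases and passenger proteins fell, 6 of 7 cyclins and their regulators, 5 of 6 checkpoint and anaphase genes, 5 of 6 centromere and kinetochore genes, 7 of 8 kinesins and cytokinesis genes, 7 of 9 spindle genes and both genes of chromosome structure. The role medians lay between -1.74 and -2.26.

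The largest falls in HCT116 oxpl-R cells were those of KIF20A, a kinesin of cytokinesis, PLK1 and CDC20. KIF20A had 3414, 4298 and 2677 in controls and 418, 348 and 691 with oxaliplatin (log2FC -2.84 ± 0.27, adjusted p = 4.99e-09). PLK1 had 5101, 5400.3 and 4940.2 in controls and 933, 521 and 756 with oxaliplatin (log2FC -2.80 ± 0.21, adjusted p = 9.35e-11). CDC20 had 9096, 9774 and 9933 in controls and 1638, 1264 and 1397 with oxaliplatin (log2FC -2.74 ± 0.19, adjusted p = 2.1e-11). For each of the 3 genes every treated sample lay far below every control, with a gap that exceeded the spread within either group. MKI67 had 6459, 7159 and 5426 in controls and 925, 926 and 1333 with oxaliplatin, a log2FC of -2.58 ± 0.24.

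Of the cyclins, CCNA2 fell most, from 2891, 3657 and 2382 to 269, 610.4 and 739 (log2FC -2.47 ± 0.34, adjusted p = 4.62e-06), with CCNB2 beside it at -2.47 ± 0.19. CCNB1 had 7590.0, 4816 and 8759.9 in controls and 2119, 1502 and 2696 with oxaliplatin, a log2FC of -1.74 ± 0.34 with no overlap. CDK1 fell from 4604, 7564 and 4118 to 1031, 2237 and 2407 (log2FC -1.52 ± 0.37, adjusted p = 0.0095). That call was lost without control sample 2 or oxaliplatin sample 1. FOXM1 fell from 3760.4, 4240.5 and 3845 to 1167, 987 and 964 (-1.93 ± 0.17, adjusted p = 2.38e-09), and its samples were tightly grouped on both sides. CDC25B, at -0.86 ± 0.18, had the smallest fall of the genes called, and CDC25C, at -1.28 ± 0.40, was just short of the threshold (adjusted p = 0.0514).

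Both Aurora kinases fell in the resistant line. AURKA had 2803, 2743 and 3222 in controls and 563, 612 and 1043 with oxaliplatin (-1.98 ± 0.23). AURKB had 2002, 2088 and 2017 in controls and 646, 416 and 479 with oxaliplatin (-1.99 ± 0.19). The groups of both lay apart, and the passenger complex partners BIRC5 and CDCA8 fell as well, with log2FC of -2.07 ± 0.20 and -2.38 ± 0.18. BUB1 fell from 897, 783 and 1988 to 207, 83.4 and 474 (-2.27 ± 0.48, adjusted p = 0.00236) and GTSE1 from 1884, 2017 and 1547 to 432, 379 and 314 (-2.27 ± 0.19). TOP2A fell from 1364, 1519 and 3295 to 569, 222 and 1194 (-1.64 ± 0.50, adjusted p = 0.046), with sample 3 highest in both groups. Its call was lost without control sample 3, oxaliplatin sample 1 or oxaliplatin sample 2. At the centromere, CENPA, the histone variant that marks it, fell with a log2FC of -2.59 ± 0.26, and the microtubule motor CENPE and the kinetochore protein CENPF had -2.69 ± 0.64 and -2.39 ± 0.63.

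The 6 genes not called in HCT116 oxpl-R cells were CDC25C and CKAP2, DLGAP5, ECT2, NDC80 and PTTG1, the latter 5 called in neither line. For all 6, each treated sample lay below the control sample of the same number. Alternatives other than leaving out 1 sample called between 37 and 45 of the 45 genes, against 39 in the main fit. DLGAP5, a spindle protein, had 429.6, 394 and 2077 in controls and 203, 63.4 and 606 with oxaliplatin, so that sample 3 was far above samples 1 and 2 in both groups. Its log2FC was -1.74 ± 0.71. PTTG1, the securin that holds separase inactive, had 4774, 6519 and 5116 in controls and 3072, 35.6 and 2776 with oxaliplatin, so sample 2 alone was far below all others. PTTG1 has near-identical copies (PTTG2 and PTTG3P), as KIF4A has in KIF4B, and how the estimated counts are split among such copies is uncertain. ECT2, which activates RhoA in cytokinesis, stood at -0.74 ± 0.56, the smallest fall of the list.

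**Figure D2:**
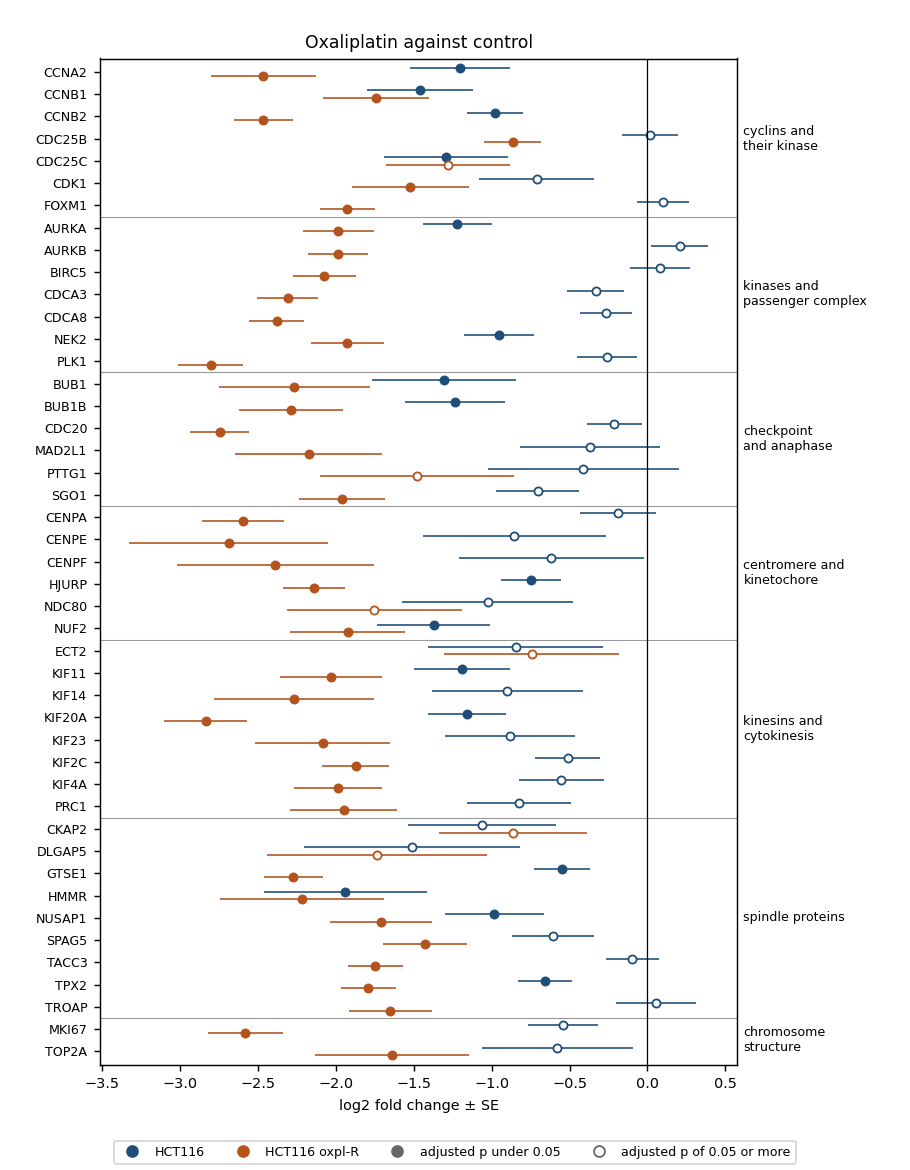
Log2 fold change (points) with its standard error (bars) for oxaliplatin against control in HCT116 (blue) and HCT116 oxpl-R (orange), for the 45 genes by role, with filled points for an adjusted p under 0.05. All orange points lie below 0, between -2.84 and -0.74, and the blue points lie between -1.94 and 0.21.

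The responses of the lines were compared by the difference of their log2FC within the fit. For 18 of the 45 genes the fall was larger in HCT116 oxpl-R cells and for none was it smaller, with a median difference of -1.26. The share of all genes with a lower response in the resistant line was 1.91% in the count table and 2.73% in the second, and among genes with at least 100 counts on average it was 3.76%. By role, these were 5 of 7 kinases and passenger proteins, 4 of 9 spindle genes, 3 of 8 kinesins and cytokinesis genes, 2 of 7 cyclins and their regulators (CCNB2 and FOXM1), 2 of 6 centromere genes, 1 of 6 checkpoint genes (CDC20) and MKI67. PLK1 had the largest difference, -2.54 ± 0.28 (adjusted p = 1.91e-06), from -0.26 ± 0.20 in HCT116 and -2.80 ± 0.21 in HCT116 oxpl-R. CDC20 followed with -2.53 ± 0.25 (adjusted p = 4.24e-07) and CENPA with -2.40 ± 0.35 (adjusted p = 0.000117). AURKB, with -2.19 ± 0.26, BIRC5, with -2.15 ± 0.28, and FOXM1, with -2.03 ± 0.24, stood at 0.21, 0.08 and 0.10 in HCT116 and at -1.99, -2.07 and -1.93 in the resistant line.

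For other genes no difference between the lines was shown. CCNB1 differed by -0.28 ± 0.47 between the lines (adjusted p = 0.987), HMMR by -0.28 ± 0.72 and CDC25C by 0.01 ± 0.56, and the standard errors leave room for differences of either sign. AURKA differed by -0.76 ± 0.31 (adjusted p = 0.205) and CCNA2 by -1.26 ± 0.45 (adjusted p = 0.139), both toward a larger fall in the resistant line. In all, 15 genes were called in both lines, CDC25C in HCT116 alone, 24 in HCT116 oxpl-R alone and 5 in neither. Of these, only the 18 genes above passed the test of the difference.

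**Figure D3:**
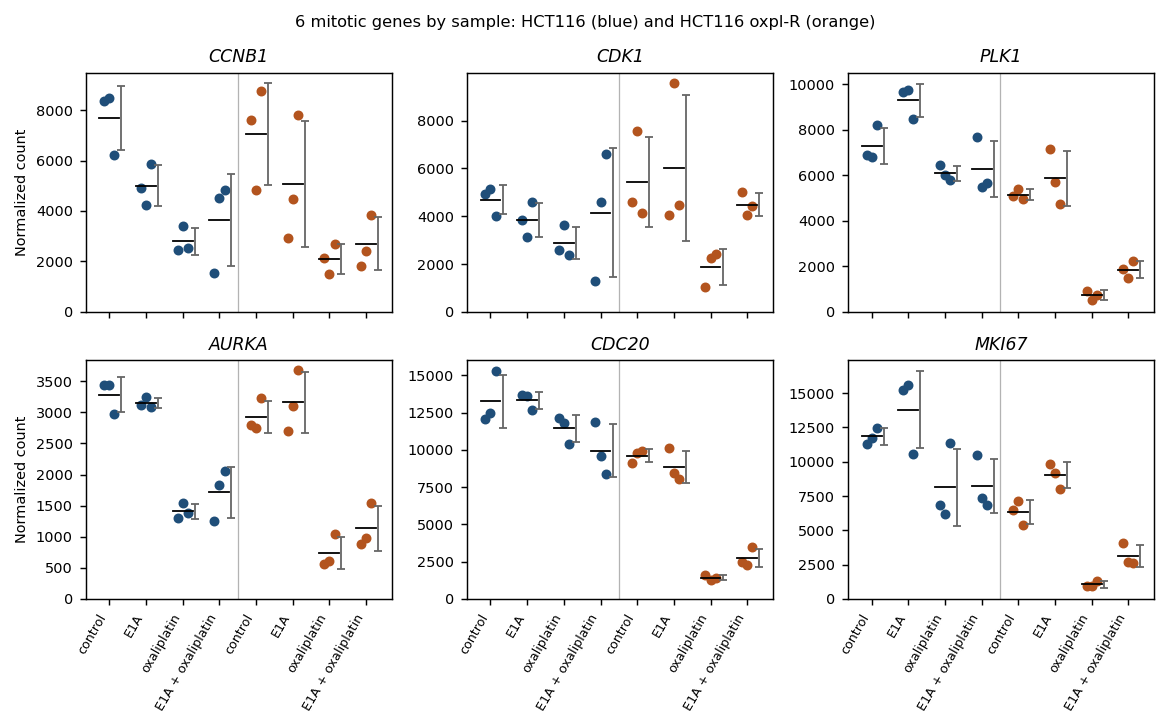
Normalized counts of CCNB1, CDK1, PLK1, AURKA, CDC20 and MKI67 in each sample (points), with the group mean (line) and SD (bar beside the points), HCT116 in blue and HCT116 oxpl-R in orange. PLK1 and CDC20 differ little between HCT116 controls and HCT116 given oxaliplatin but fall to between 521 and 933 and between 1264 and 1638 in HCT116 oxpl-R given oxaliplatin, while CCNB1 is low under oxaliplatin in both lines.

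Genes with and without the CHR letters in their promoter windows were among those that fell. In the resistant line 26 of the 30 genes with the CHR letters fell and 8 of the 10 without them, with medians of -2.11 and -1.90. In HCT116 cells the medians were -0.73 with and -0.90 without the letters.

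Without oxaliplatin, no mitotic gene was called between E1A and control in either line. In HCT116 cells none of the 45 genes was called, where 0.432% of all genes were, and the median log2FC was -0.05. None had an unadjusted p under 0.05, and DESeq2 and limma also called 0, while the fit of only those 2 groups called 3. In the resistant line none was called, against 0.226% of all genes, with a median of 0.13, and 1 gene had an unadjusted p under 0.05. The difference between the lines was called for 0 genes, against 0.0103% of all genes. PLK1 had 9662, 9746 and 8454 with E1A against 6895, 6796 and 8189.5 in HCT116 controls, a log2FC of 0.35 ± 0.20. CCNB1 had 4921, 4224 and 5867 with E1A, below all 3 controls, but its log2FC of -0.62 ± 0.33 was not called. MKI67 in HCT116 oxpl-R cells had 9849, 9172 and 7982 with E1A against 6459, 7159 and 5426 in controls, above all controls, with an uncalled log2FC of 0.50 ± 0.22.

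Under oxaliplatin the groups with and without E1A differed in HCT116 oxpl-R cells. There 15 of the 45 genes were higher with E1A + oxaliplatin than with oxaliplatin alone and none was lower, with a median log2FC of 0.90. The oxaliplatin samples are the same as in the comparison with control, so these log2FC are not independent of those. Over all genes 1.29% were higher in either table, with a median of 0.0, and among genes with at least 100 counts on average 2.35% were higher. The samples did not overlap, with E1A + oxaliplatin higher, for 22 of the 45 genes, against 7.04% of all genes. The genes that rose were 5 of 7 kinases and passenger proteins, 3 of 7 cyclins and their regulators (CCNA2, CCNB2 and FOXM1), CDC20 of the checkpoint genes, CENPA and HJURP of the centromere genes, KIF2C of the kinesins, GTSE1 and TACC3 of the spindle genes, and MKI67. Shorter members had the higher log2FC (median 0.98 against 0.72 for the longer ones, rank correlation with length -0.35, and -0.20 over expressed genes), and the part of length was not tested.

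MKI67 rose most, from 925, 926 and 1333 with oxaliplatin to 4063, 2668 and 2651 with E1A + oxaliplatin (log2FC 1.56 ± 0.23, adjusted p = 9.16e-05). PLK1 rose from 933, 521 and 756 to 1868, 1470.2 and 2220.0 (1.33 ± 0.20, adjusted p = 0.000117) and CENPA from 156, 238 and 190.0 to 489.8, 337 and 629 (1.32 ± 0.25, adjusted p = 0.00251). For all 3 genes each sample with E1A lay above each sample without it, and below the controls of the line. FOXM1 rose from 1167, 987 and 964 to 2304, 1971 and 2405 (1.10 ± 0.17, adjusted p = 0.000154). AURKB rose from 646, 416 and 479 to 1057, 877 and 1453 (1.14 ± 0.19) and CDC20 from 1638, 1264 and 1397 to 2482, 2293 and 3465 (0.94 ± 0.18, adjusted p = 0.00225), again without overlap. The call of CDC20 was lost without E1A + oxaliplatin sample 3, the highest of its group.

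CCNA2 rose from 269, 610.4 and 739 to 1362, 1326 and 1309 (1.31 ± 0.32, adjusted p = 0.0292), but lost its call without any 1 of the samples of the comparison except oxaliplatin sample 3. CDK1 had 1031, 2237 and 2407 with oxaliplatin and 4993, 4038 and 4422 with E1A + oxaliplatin. Its groups did not overlap, and the log2FC of 1.25 ± 0.37 was not called (adjusted p = 0.102). CCNB1, with 1832, 2429.8 and 3855 under both agents, overlapped its oxaliplatin group (0.36 ± 0.33, adjusted p = 0.812). AURKA had 878, 974 and 1550.1 under both agents and BUB1 had 263, 248 and 918, with overlap in both, and TOP2A, with 529, 538 and 953, stood at 0.03 ± 0.49. The number of genes called was 24 without oxaliplatin sample 3 and 10 without E1A + oxaliplatin sample 3, which lay on average 0.91 and 0.65 above the other samples of their groups on the log2 scale, and it was 8 when only the 2 groups were fitted.

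**Figure D4:**
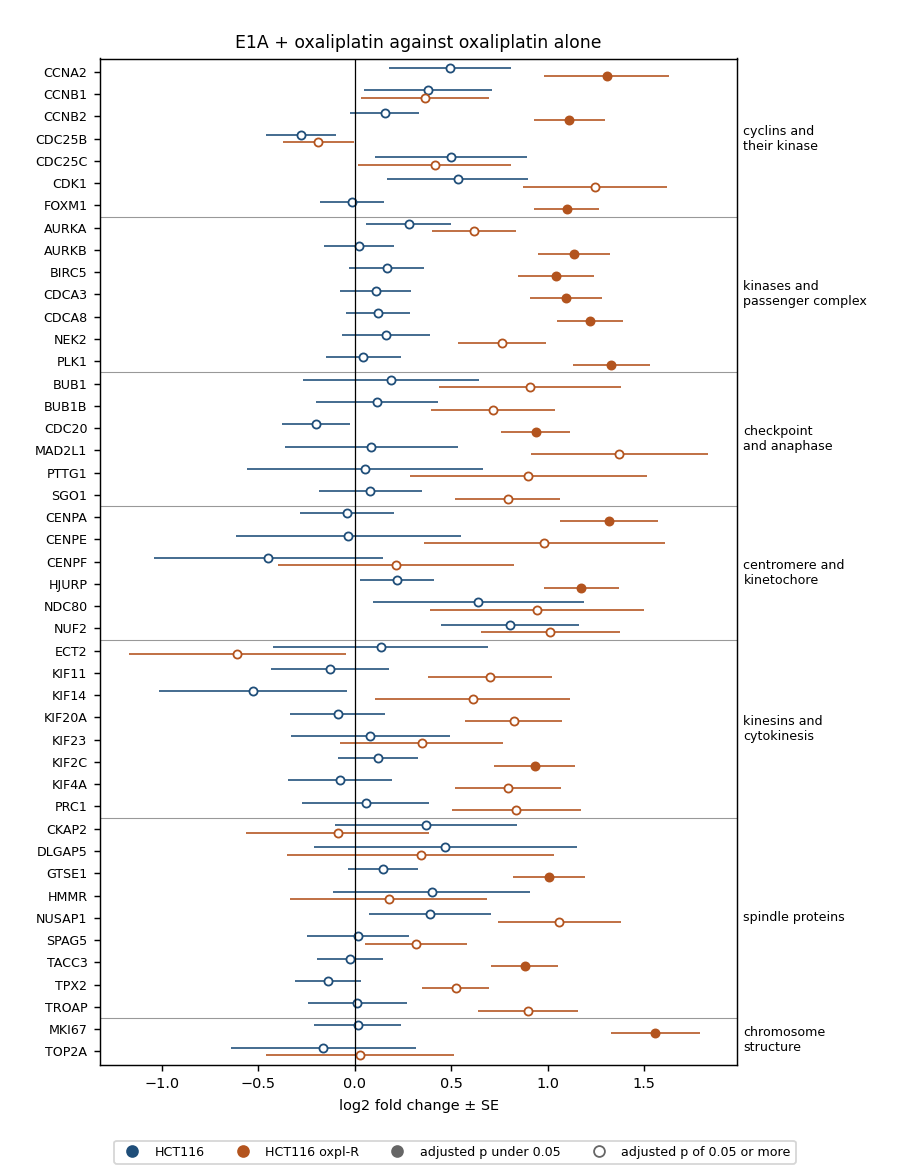
Log2 fold change (points) with its standard error (bars) for E1A + oxaliplatin against oxaliplatin alone in HCT116 (blue) and HCT116 oxpl-R (orange), for the 45 genes by role, with filled points for an adjusted p under 0.05. The 15 filled points are all orange and lie between 0.88 and 1.56, and the blue points lie on both sides of 0.

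In HCT116 cells none of the 45 genes was called between E1A + oxaliplatin and oxaliplatin alone by edgeR, DESeq2 or limma, and 1 had an unadjusted p under 0.05. The median log2FC was 0.09, and 0.0874% of all genes were called. E1A + oxaliplatin sample 1 stood apart there. CDK1, for example, had 1276, 4591 and 6592 under both agents. CCNB1 had 1532, 4529 and 4828 and PLK1 had 7702, 5506 and 5640.0, so sample 1 was the lowest for the cyclin and its kinase and the highest for PLK1.

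The rise with E1A under oxaliplatin was larger in HCT116 oxpl-R than in HCT116 for 4 genes, MKI67 by 1.54 ± 0.32 (adjusted p = 0.0458), PLK1 by 1.29 ± 0.28 (adjusted p = 0.0493), FOXM1 by 1.11 ± 0.24 (adjusted p = 0.0458) and CDCA8 by 1.10 ± 0.24 (adjusted p = 0.0493). Over all genes this share was 0.129%, and the median difference over the 45 genes was 0.81. All 4 values lie near the threshold. None of the 45 genes was called without HCT116 oxaliplatin sample 1, HCT116 E1A + oxaliplatin sample 2 or 3, HCT116 oxpl-R oxaliplatin sample 2, or HCT116 oxpl-R E1A + oxaliplatin sample 1 or 3. The count was 1 without HCT116 oxaliplatin sample 2, 2 without sample 3 of either oxaliplatin group and 7 without HCT116 E1A + oxaliplatin sample 1, and DESeq2 called 11.

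Set against its own control, each gene showed where E1A left it under the drug. The mean with E1A + oxaliplatin lay above that with oxaliplatin alone for 42 of the 45 genes in HCT116 oxpl-R cells and for 32 in HCT116 cells. In the resistant line all 42 still lay below the mean of the controls. The term for the interaction of E1A with oxaliplatin was called for none of the genes in HCT116 oxpl-R cells by edgeR (0.036% of all genes), with a median of 0.80 and 21 genes at an unadjusted p under 0.05. DESeq2 called 6 of them and limma 1, and edgeR called 1 without oxaliplatin sample 1 or sample 3. The interaction values of this line went with transcript length, with rank correlations of -0.53 over the 45 genes and -0.19 over expressed genes. The 23 longer members had a median of 0.52 and the 22 shorter ones of 0.97, and the part of length was not tested. In HCT116 cells the interaction was called for none by any of the 3 tools (0.0103% of all genes), with a median of 0.04 and 2 genes at an unadjusted p under 0.05. All comparisons of 1 line share groups of samples, so these counts are not independent of those for oxaliplatin alone.

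In cells with E1A induced, oxaliplatin lowered 9 of the 45 genes in HCT116, against 4.69% of all genes, and 29 in HCT116 oxpl-R, against 1.1% of all genes, and raised none. Among genes with at least 100 counts on average the shares that fell were 9.22% and 2.01%. The medians were -0.48 and -1.33. The log2FC went with transcript length, with rank correlations over the 45 genes of -0.48 in HCT116 and -0.52 in HCT116 oxpl-R (-0.44 and -0.20 over 8828 expressed genes). The 23 longer members had medians of -0.88 and -1.48 and the 22 shorter ones -0.39 and -1.03, and all genes named in the rest of this comparison except CDC20 and PLK1 are among the longer ones. The part of length in these values was not tested. In HCT116 cells KIF20A fell most, from 3784, 3816 and 2434 with E1A to 1446, 1091 and 1090.1 with both agents (-1.47 ± 0.25, adjusted p = 0.000297), without overlap. KIF11, the kinesin that pushes spindle poles apart, had a log2FC of -1.11 ± 0.31 and BUB1B, the checkpoint protein BubR1, of -1.07 ± 0.32. BUB1B lost its call without any 1 of the 6 samples of the comparison, and KIF11 without E1A sample 1 or 2 or E1A + oxaliplatin sample 2 or 3. The number of genes called in HCT116 cells was 4 without E1A sample 1 or 2 or without E1A + oxaliplatin sample 3, and 3 without E1A + oxaliplatin sample 2.

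In HCT116 oxpl-R cells the largest fall under E1A was that of CENPF, from 1924, 920.2 and 2183 to 228, 181 and 305 (-2.81 ± 0.64, adjusted p = 0.00807). KIF20A fell from 5197, 4552 and 2743 to 908, 703 and 967 (-2.28 ± 0.26, adjusted p = 6.26e-07) and KIF14, a kinesin of the midbody, from 318, 258 and 577 to 91.8, 107 and 109 (-1.90 ± 0.50). The groups did not overlap for any of the 3 genes, and within the E1A group sample 2 was the lowest for CENPF and KIF14. KIF14 lost its call without E1A sample 3 or any 1 of the E1A + oxaliplatin samples, and CENPF without E1A + oxaliplatin sample 2. CDC20 and PLK1, at -1.69 ± 0.18 and -1.66 ± 0.20, fell here too, where the same drug without E1A gave -2.74 ± 0.19 and -2.80 ± 0.21.

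Between the untreated lines few of the genes were called. In HCT116 oxpl-R controls 6 of the 45 genes were lower than in HCT116 controls and none was higher, against 6.93% of all genes lower and 13.5% of genes with at least 100 counts on average, with a median of -0.35. The list was thus lower about as often as genes with at least 100 counts on average. KIF11 (chr10:92574105-92655395) had 1675, 1643 and 1465 in HCT116 and 502, 489 and 515 in HCT116 oxpl-R, 2 tight groups without overlap (log2FC -1.67 ± 0.31, adjusted p = 0.000279). The log2FC was -0.97 ± 0.32 for BUB1B, -0.90 ± 0.23 for MKI67, -0.69 ± 0.18 for AURKB, -0.61 ± 0.17 for TACC3, a spindle protein, and -0.53 ± 0.17 for FOXM1. MKI67 had 11328, 11705 and 12485 against 6459, 7159 and 5426, and FOXM1 had 5066, 5430.5 and 6558 against 3760.4, 4240.5 and 3845, without overlap. BUB1B lost its call without any 1 of the samples except HCT116 oxpl-R control sample 3, FOXM1 without any except HCT116 control sample 1, and AURKB without HCT116 control sample 3. BUB1B also lost it when the second table was used, and FOXM1 under RLE normalization and total counts. The count was 2 without HCT116 control sample 3 and 3 without HCT116 oxpl-R control sample 1, and 17 when only these 2 groups were fitted. The log2FC went with transcript length, with a rank correlation of -0.40 over the 45 genes and -0.26 over expressed genes, and the part of length was not tested. CDK1, KIF11 and MKI67 are the 3 members on chromosome 10. CDK1 (chr10:60778331-60794852), at 0.21 ± 0.37, lies at lower coordinates than KIF11 and MKI67 (chr10:128096659-128126423), which were both lower. The paper reports a deletion in the long arm of this chromosome in the resistant line, and its part in these values was not tested.

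Under oxaliplatin the lines stood farthest apart. In HCT116 oxpl-R cells 35 of the 45 genes were lower than in HCT116 cells under the same drug and none was higher, against 12% of all genes lower and 22.6% of genes with at least 100 counts on average, with a median of -1.74. The log2FC was -3.05 ± 0.21 for PLK1 (adjusted p = 3.32e-12), -3.00 ± 0.19 for CDC20 (adjusted p = 5.98e-13) and -2.94 ± 0.24 for MKI67 (adjusted p = 9.66e-11). PLK1 thus had 6092 ± 323 normalized counts (SD, n = 3) in HCT116 and 737 ± 207 in HCT116 oxpl-R under oxaliplatin, and CDC20 had 11441 ± 924 and 1433 ± 189. HMMR, at 0.22 ± 0.51, was the only gene with a positive log2FC. With E1A the lines differed for 7 genes, all lower in HCT116 oxpl-R (7.75% of all genes and 15.4% of genes with at least 100 counts on average were lower, median -0.25), and for 3 genes without HCT116 E1A sample 1 or 2 or HCT116 oxpl-R E1A sample 2 or 3. The 7 of 45 genes were close to the share among genes with at least 100 counts on average. With E1A + oxaliplatin 24 genes were lower and none higher (8.92% of all genes and 17.1% of genes with at least 100 counts on average were lower, median -0.95), led by CDC20 at -1.86 ± 0.18 and CENPF at -1.79 ± 0.62. CENPF had 1441, 492 and 544 in HCT116 under both agents, so sample 1 stood far above the others, and without it the log2FC was -1.12 and not called (adjusted p = 0.303 with edgeR). The call of CENPF was also lost without HCT116 oxpl-R E1A + oxaliplatin sample 1 or 2.

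Other genes of the cell cycle, taken from lists that hold none of the 45 genes, give the surroundings. Of 48 further mitotic genes tested, 18 fell and 2 rose with oxaliplatin in HCT116 cells and 37 fell in HCT116 oxpl-R cells, with medians of -0.58 and -1.64. The largest falls were those of G2E3, at -1.72 ± 0.44, in HCT116 and of the helicase PIF1, at -2.70 ± 0.25, in HCT116 oxpl-R. With E1A added under oxaliplatin, 17 of the 48 rose in the resistant line and 0 in HCT116. In the resistant line 1.29% of all genes rose, and 2.35% of genes with at least 100 counts on average. Of 38 genes of replication and S phase, 15 fell and 2 rose in HCT116 and 32 fell in HCT116 oxpl-R, with medians of -0.57 and -1.48, led in the resistant line by MCM10, a factor of replication initiation, at -2.43 ± 0.35. With E1A added, 24 of these 38 rose in the resistant line, where their median was 1.03, led by CCNE2 (cyclin E2) at 2.48 ± 0.43, where the 45 mitotic genes had 15 called and a median of 0.90.

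Of 12 genes of MuvB, DREAM and MYBL2, 5 fell in HCT116 and 4 in HCT116 oxpl-R cells with oxaliplatin. The shares of all genes that fell were 8.61% and 3.01%, and 17.3% and 5.69% among genes with at least 100 counts on average. MYBL2, the activator partner of MuvB, stood at 0.16 ± 0.18 in HCT116 and fell in HCT116 oxpl-R (log2FC -1.96 ± 0.19, adjusted p = 1.04e-08), a difference of -2.11 ± 0.26 between the lines, and it rose, with 1.64 ± 0.19, with E1A under oxaliplatin in the resistant line. E2F4, the E2F factor of DREAM, was not called with oxaliplatin in either line (-0.02 ± 0.16 and -0.12 ± 0.16) but was lower in the untreated resistant line (-0.75 ± 0.17, adjusted p = 0.00163). Of 14 genes of the G2 checkpoint, 8 rose and 1 fell in HCT116 and 7 rose and 1 fell in HCT116 oxpl-R cells. Over all genes 8.74% and 3.1% rose with oxaliplatin, and 16.1% and 5.74% of genes with at least 100 counts on average. CDKN1A, the inhibitor p21, rose in HCT116 and HCT116 oxpl-R cells (log2FC 3.70 ± 0.20 and 2.87 ± 0.19, adjusted p = 5.97e-14 and 1.14e-11), a difference of -0.83 ± 0.25 that was not called, and in controls it was already higher in the resistant line by 1.97 ± 0.18. PKMYT1, the kinase that inhibits CDK1, fell in HCT116 oxpl-R cells (log2FC -1.81 ± 0.21) and rose with E1A under oxaliplatin (1.41 ± 0.20).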

How the data were processed

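RNA of 24 samples was used, 3 in each of 8 groups, with groups as labelled. Per the methods and processing notes, reads were trimmed with Trimmomatic, assigned to GENCODE transcripts of GRCh38 by Salmon 1.6.0 and collapsed to genes by tximport. The resulting estimated counts, deposited unnormalized, were not whole for 15.9% to 30.4% of the values in a sample and were rounded. A second deposited table named as TPM holds length-scaled estimated counts (median ratio to the counts 0.9967), a unit other than the one assumed when the analysis was planned, and gave the 6 genes after SETP6. The tables were normalized and tested separately.

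All 24 samples entered one fit with edgeR 4.0.16 in R 4.3.3 (TMM, quasi-likelihood test), with every gene that had a count, 19452 in the count table and 22833 in the second, and Benjamini-Hochberg adjustment over the whole table. The fits were tested on simulated counts with known changes beforehand. Alternatives used DESeq2 1.42.0, limma 3.58.1 on log2(value + 1) of the second table, other normalizations and filters, a replicate block, only the groups compared, and each sample left out in turn. Tables and plots were made with Python 3.11.15, pandas 2.3.3, numpy 2.4.6 and matplotlib 3.10.9. Gene positions and transcript lengths came from a GENCODE release on GRCh38 earlier than that of the authors.

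The members and the gene lists were chosen with earlier results of these data known. Values per sample were given for 12 members chosen by name (CCNB1, CCNA2, CDK1, PLK1, AURKA, AURKB, FOXM1, CDC20, BUB1, GTSE1, TOP2A and MKI67) and for the 3 largest changes in each direction among genes called in a comparison. Members that were not called or went against the list were named with their values, and of other lists at most 3 genes per comparison with the largest changes, with CDKN1A, MYBL2 and E2F4. Same-numbered samples shared their deviations from the group means, with all 3 correlations over genes above 0.1, only in the following comparisons. These were E1A + oxaliplatin against E1A in HCT116 oxpl-R (0.467, 0.544 and 0.555) and the lines under oxaliplatin (0.145, 0.165 and 0.266). In HCT116 oxpl-R, oxaliplatin against control (0.0969, 0.467 and 0.591) and E1A against control (0.0869, 0.484 and 0.775) missed that bar through sample 1 alone. The same held there for E1A + oxaliplatin against oxaliplatin (0.0343, 0.214 and 0.295).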

Additional observations from a re-analysis of the deposited data

Results flagged for a closer look

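The responses to oxaliplatin differed between the lines by a test of the difference itself for 18 of the 45 mitotic genes, all with a lower log2FC in HCT116 oxpl-R. The largest differences were those of PLK1 (-2.54), CDC20 (-2.53) and CENPA (-2.40), and all 3 genes had a lower log2FC in the resistant line in every alternative tried. In HCT116 oxaliplatin sample 3, CENPA had 576 normalized counts where samples 1 and 2 had 1262 and 1190.

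The effect of E1A under oxaliplatin differed between the lines for 4 of the 45 genes, with larger log2FC in HCT116 oxpl-R. The differences were 1.54 for MKI67, 1.29 for PLK1 and 1.11 for FOXM1, all with adjusted p-values near the threshold, and the number of genes called was 0 without any 1 of 6 of the libraries.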

How the results depend on the processing

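No value of a single gene that passed the test and was followed through the alternatives reversed its direction. The medians near 0 changed sign, from -0.05 to 0.01 with total counts and 0.07 with limma for E1A in HCT116 and from 0.04 to -0.02 without HCT116 E1A sample 3 for the interaction in HCT116, which was also just below 0 without HCT116 E1A + oxaliplatin sample 1. Of 83 values of single genes that passed the test, 53 kept their call under every alternative and 30 lost it under at least 1. The number of mitotic genes called ranged over the fits that left out 1 sample from 5 to 26 for oxaliplatin in HCT116 (26 also without HCT116 oxaliplatin sample 3 and HCT116 E1A + oxaliplatin sample 1 together, an alternative chosen after seeing the data), from 34 to 43 for oxaliplatin in HCT116 oxpl-R, from 17 to 24 for the difference between the lines, from 10 to 24 for E1A under oxaliplatin in HCT116 oxpl-R, from 0 to 7 for the difference between the lines in that effect, from 3 to 8 and from 22 to 31 for oxaliplatin with E1A in HCT116 and HCT116 oxpl-R, from 0 to 1 for the interaction in HCT116 oxpl-R, and from 2 to 8, 30 to 38, 3 to 7 and 19 to 30 for the lines compared as controls, under oxaliplatin, with E1A and with both. A fit left with 2 samples in a group assumes that they vary like the other groups.

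Fitting only the groups compared called 3 genes for E1A in HCT116, 8 for E1A under oxaliplatin in HCT116 oxpl-R, 0 for the difference between the lines in that effect and 17 between the untreated lines. The difference between the lines in the effect of E1A under oxaliplatin had 1 gene called with RLE normalization, 0 with total counts, 11 with DESeq2 and 8 without the 2 libraries named above. The interaction in HCT116 oxpl-R had 6 with DESeq2, 1 with genes of at least 10 counts on average, 1 with limma and 3 without the 2 libraries. Between the lines with E1A, 4 genes were called with RLE normalization, 4 with total counts and 3 without mitochondrial genes, the last chosen after seeing the data. The cause of these changes was not tested.

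The replicate block called 11 genes between the untreated lines, and 15 when only those groups were fitted. With only the groups compared it called 18 for oxaliplatin with E1A in HCT116 and 0 for the difference between the lines in the effect of E1A under oxaliplatin. Between the untreated lines and for oxaliplatin with E1A in HCT116 the numbers did not pair the samples. For the difference between the lines in the effect of E1A under oxaliplatin, pairing was not checked. For the 2 comparisons where they did, the block moved neither count by more than 1.5 times. For E1A + oxaliplatin against E1A in HCT116 oxpl-R, alternatives other than leaving out 1 sample called between 27 and 43 genes, against 29. For oxaliplatin against control in HCT116 oxpl-R they called between 37 and 45, against 39.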
